A study of Homo sapiens with 30 samples.

Results

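The aryl hydrocarbon receptor pathway is described here by 6 genes, AHR, ARNT, TIPARP, CYP1B1, CYP1A1 and CYP1A2, in macrophage-like cells exposed to 2 nanomaterials. The members were chosen with earlier results of these data known, and their probe sets by name. Every probe set that the array's annotation gives to one of these symbols and to no other gene was taken. That gave 12 of the 22277 probe sets, 4 for CYP1B1, 3 for ARNT, 2 for CYP1A2 and 1 each for AHR, TIPARP and CYP1A1. All 12 passed the filter on low values, so that 6 of the 10050 genes tested were members.

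The cells were THP-1, an established human monocytic leukaemia line. Every group, controls included, had first been made macrophage-like and adherent with 82 nM phorbol 12-myristate 13-acetate (PMA) for 24 h, and was then washed, scraped and plated again. The controls received no particles (0 µg/ml), and the exposed cells received MWCNT (multi-walled carbon nanotubes, tubes of rolled carbon sheets) or TiO2-NB (titanium dioxide nanobelts, long flat particles) at 10 or 100 µg/ml. RNA of the adherent cells was taken after 1 or 24 h, which gives 10 groups of 3 arrays that the labels call biological replicates. The design asks how such cells answer each material, how the answer depends on dose, and whether it is early or late.

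AHR is a transcription factor that waits in the cytoplasm, bound to chaperones, until a ligand such as a dioxin, a polycyclic aromatic hydrocarbon or a tryptophan metabolite binds it. It then enters the nucleus, pairs with ARNT and binds DNA at a short core motif, which raises transcription of CYP1A1, CYP1A2 and CYP1B1, the cytochrome P450 enzymes that oxidise many of these ligands. TIPARP, also called PARP7, is another target; it ADP-ribosylates AHR and limits its activity. Monocytes and macrophages express CYP1B1 readily, whereas CYP1A2 is known chiefly as a liver enzyme.

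Levels are log2 intensities of 3-prime expression arrays, in which a difference of 1 is a doubling, and are compared between groups within a probe set and never between probe sets. Array medians lay between 6.35 and 6.46 and the 25th percentiles of the arrays between 4.77 and 4.91. No 2 arrays of a group correlated below 0.9938, and no 2 of the series below 0.9785. A gene was called when limma's moderated test gave an adjusted p under 0.05 (Benjamini-Hochberg over the 10050 genes of a comparison), and errors of differences are standard errors of that fit. Of 10 measured monocyte and macrophage markers 9 lay above the array median on all 30 arrays, while 8 of 9 epithelial markers lay below it on all 30. In the lymphocyte list NKG7 and GNLY, and in the fibroblast list COL1A1 and PDGFRA, lay above the median on all 30. These are bulk samples, so fewer cells of a kind and less RNA per cell cannot be told apart.

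Promoter sequence is shown for TIPARP, which changed in opposite directions with the materials, and for CYP1A1, the classical target that stayed near the low end of the arrays. Each sequence holds the 250 bases before an annotated start, from RefSeq (GRCh38.p14), in the direction of transcription. The TIPARP window is chr3:156674340-156674589 on the plus strand, before the first of its 3 annotated starts, and the CYP1A1 window is chr15:74725529-74725778 on the minus strand. Capitals mark GCGTG, the core that AHR and ARNT bind, or its reverse complement CACGC.
TIPARP: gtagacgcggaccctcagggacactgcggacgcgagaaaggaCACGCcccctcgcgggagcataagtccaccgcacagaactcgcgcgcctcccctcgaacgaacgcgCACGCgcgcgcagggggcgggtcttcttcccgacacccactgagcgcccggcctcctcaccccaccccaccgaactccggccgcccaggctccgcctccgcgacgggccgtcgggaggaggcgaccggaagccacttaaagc
CYP1A1: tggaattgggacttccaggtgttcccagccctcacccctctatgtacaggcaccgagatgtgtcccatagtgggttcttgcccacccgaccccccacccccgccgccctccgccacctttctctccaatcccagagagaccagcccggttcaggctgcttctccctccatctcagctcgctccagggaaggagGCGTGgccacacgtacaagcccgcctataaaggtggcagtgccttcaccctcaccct

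The TIPARP window held 2 matches, with first bases at -208 and -142 from the start, and the CYP1A1 window 1, at -57. Windows of the same length before the starts of AHR, ARNT, CYP1A2 and the other two starts of TIPARP held no match to these letters on either strand. The core occurred in 32.2% of all 35114 such windows. The longer motif TNGCGTG, which contains the core and was also searched on both strands, occurred in 4.52% of all windows and in none of those of AHR, ARNT, TIPARP, CYP1A1 and CYP1A2. The CYP1B1 window was not analysed here. A match describes the letters and shows no binding. Sequence outside these windows was not searched, so a window without a match does not show that a gene lacks the motif elsewhere.

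The materials differed in the pathway after 24 h at 100 µg/ml. There CYP1B1 was 5.97-fold, TIPARP 3.75-fold and AHR 1.24-fold lower with MWCNT than with TiO2-NB. ARNT, CYP1A1 and CYP1A2 were not called. Thus 3 of 6 members were called lower with MWCNT and 0 higher, where 10.9% of all tested genes were called lower and 14% higher. Ranges lay apart for CYP1B1, TIPARP, AHR and ARNT, as for 40.8% of genes. The median difference (MWCNT minus TiO2-NB) of the 6 members was -0.26, beside -0.02 over all genes.

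**Figure D1:**
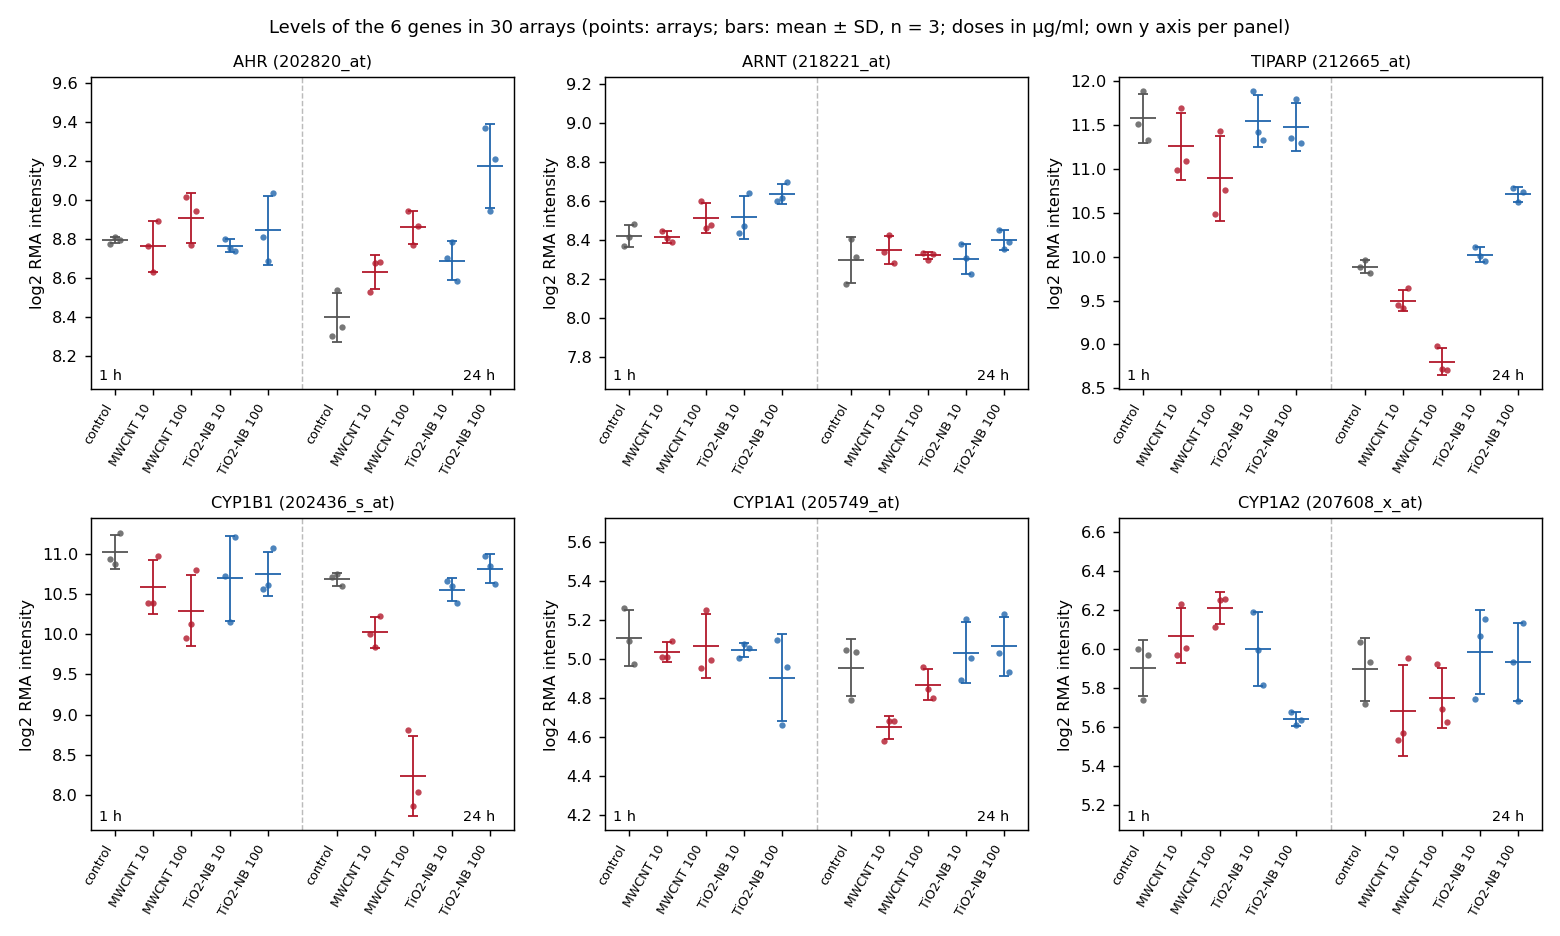
Level of each member on every array, as log2 RMA intensity, for the control and both materials at 10 and 100 µg/ml after 1 h (left of the dashed line) and 24 h (right), with points for arrays and bars for the mean ± SD of 3 arrays; each panel has its own y axis. At 24 h and 100 µg/ml the MWCNT arrays of CYP1B1 lie between 7.86 and 8.80, below all other arrays of that probe set, and TIPARP lies below the control with MWCNT and above it with TiO2-NB.

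AHR, the receptor (probe set 202820_at), was at 8.31, 8.54 and 8.35 in the 24 h controls, at 8.94, 8.77 and 8.87 with 100 µg/ml MWCNT and at 9.37, 8.95 and 9.21 with 100 µg/ml TiO2-NB. All arrays of either material lay above all control arrays, and each TiO2-NB array lay above each MWCNT array. AHR rose with MWCNT by 0.46 ± 0.10 (limma, adjusted p = 0.00227) and with TiO2-NB by 0.78 ± 0.10 (limma, adjusted p = 3.35e-06). The difference between the materials was -0.31 ± 0.10 (limma, adjusted p = 0.0233). That call was lost without replicate 2 or 3 of the MWCNT group (adjusted p = 0.0931 and 0.0545) and without replicate 1 or 3 of the TiO2-NB group (adjusted p = 0.134 and 0.0701), and the adjusted p ran from 0.00161 to 0.134 over all alternatives. With the 6 arrays compared as the only ones in the fit it was 0.0965.

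At 10 µg/ml and 24 h AHR was at 8.53, 8.68 and 8.68 with MWCNT and at 8.70, 8.79 and 8.58 with TiO2-NB. The TiO2-NB arrays lay above the controls and the MWCNT arrays overlapped them, but neither difference passed the test (0.23 ± 0.10 with MWCNT, limma adjusted p = 1; 0.29 ± 0.10 with TiO2-NB, limma adjusted p = 0.885). Ranges lay apart in 9.63% of genes for 10 µg/ml TiO2-NB, and 0.0199% of genes were called there. From 10 to 100 µg/ml AHR rose with TiO2-NB by 0.49 ± 0.10 (limma, adjusted p = 0.00156), and the increase with MWCNT was 0.23 ± 0.10 (limma, adjusted p = 0.223). At 1 h the 5 group means lay between 8.77 and 8.91, and no AHR comparison at 1 h was called.

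ARNT, the partner that AHR needs to bind DNA, was not called in any comparison of an exposure with its control or of the materials. On 218221_at, which stands for the gene, the 30 arrays ran from 8.17 to 8.70 and the 10 group means from 8.30 to 8.64. At 24 h and 100 µg/ml ARNT was at 8.33, 8.30 and 8.33 with MWCNT and at 8.45, 8.35 and 8.39 with TiO2-NB. The ranges lay just apart, and the difference of -0.08 had a 95% interval from -0.21 to 0.06 (limma, adjusted p = 0.398). After 1 h with 100 µg/ml TiO2-NB it was at 8.60, 8.61 and 8.70 against 8.37, 8.41 and 8.48 in the control. That difference of 0.22 ± 0.07 left no overlap, as in 20.7% of genes, but failed the test (limma, adjusted p = 0.102), which 1.15% of genes passed. Of the other probe sets, 218222_x_at ran from 6.39 to 6.80, while 210828_s_at lay above the array's 25th percentile on 17 of 30 arrays and says little about the level.

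TIPARP, the AHR target that also restrains AHR (212665_at), moved away from the control in opposite directions with the materials. The 24 h controls were at 9.89, 9.96 and 9.81. With 100 µg/ml the arrays were at 8.98, 8.72 and 8.71 for MWCNT and at 10.78, 10.62 and 10.73 for TiO2-NB. All MWCNT arrays lay below and all TiO2-NB arrays above the controls. TIPARP fell with MWCNT by 1.08 ± 0.20 on the log2 scale, which is 2.12-fold (limma, adjusted p = 0.000501). It rose with TiO2-NB by 0.82 ± 0.20, which is 1.77-fold (limma, adjusted p = 0.00359). The difference between the materials was -1.91 ± 0.20 (limma, adjusted p = 3.41e-07), and it was called in 17 of 17 alternatives. After 1 h at 100 µg/ml the materials differed by -0.58 ± 0.20 (limma, adjusted p = 0.135), which was called with the replicate number as a block among the 1 h groups whose numbers pair (limma, adjusted p = 0.019, with 4% of all genes called in that fit).

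At 10 µg/ml and 24 h TIPARP was at 9.45, 9.41 and 9.64 with MWCNT and at 10.11, 10.00 and 9.95 with TiO2-NB. The MWCNT arrays lay below the control arrays, as in 8.34% of genes, and those of TiO2-NB overlapped them. The materials differed by -0.52 ± 0.20 without overlap, as 18.5% of genes did, but not past the threshold (limma, adjusted p = 0.372). Of all genes 0.00995% were called between the materials at this dose and time. From 10 to 100 µg/ml TIPARP fell with MWCNT by 0.70 ± 0.20 (limma, adjusted p = 0.0419) and rose with TiO2-NB by 0.69 ± 0.20 (limma, adjusted p = 0.0209). Called lower by dose with MWCNT were 1.56% of genes, and higher by dose with TiO2-NB 7.38%. Both dose calls were fragile. The MWCNT call was lost without any 1 array of the 10 µg/ml group, or without replicate 2 or 3 of the 100 µg/ml group (adjusted p = 0.0838 to 0.152, and 0.00793 to 0.152 over all alternatives). The TiO2-NB call was lost without replicate 2 or 3 of the 10 µg/ml group, or replicate 1 or 3 of the 100 µg/ml group (adjusted p = 0.0588 to 0.0651, and 0.00364 to 0.0651 over all alternatives).

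CYP1B1, which hydroxylates polycyclic hydrocarbons and oestradiol, fell with MWCNT and was not called with TiO2-NB on the probe set that stands for it (202436_s_at). The 24 h controls were at 10.71, 10.74 and 10.59. With 100 µg/ml at 24 h the arrays were at 8.80, 7.86 and 8.04 for MWCNT and at 10.97, 10.85 and 10.62 for TiO2-NB. The MWCNT arrays were the lowest of all 30 on this probe set, and replicate 1 of that group stood above the other two; the TiO2-NB arrays overlapped the controls. CYP1B1 fell with MWCNT, with a difference of -2.44 ± 0.25 or 5.44-fold (limma, adjusted p = 5.31e-07), and the difference with TiO2-NB was 0.13 ± 0.25 (limma, adjusted p = 0.757; 95% interval from -0.37 to 0.64). The materials differed by -2.58 ± 0.25 (limma, adjusted p = 8.72e-08), and all 17 alternatives kept that call, with values from -2.86 to -2.05.

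Among the 6 members, AHR alone was called higher with 100 µg/ml MWCNT at 24 h, and CYP1B1 and TIPARP lower, where 8.99% of genes were called higher and 4.04% lower. With TiO2-NB, AHR and TIPARP were called higher and none lower, where 10.9% of genes were called higher and 11.1% lower, 22.1% in all. Ranges lay apart from the control for those 3 members with MWCNT and for those 2 with TiO2-NB, as for 30% and 33.3% of genes. Both exposures share the 24 h control arrays. Without replicate 1 of that control 778 genes in place of 1309 were called with MWCNT, and AHR, TIPARP and CYP1B1 were still called.

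**Figure D2:**
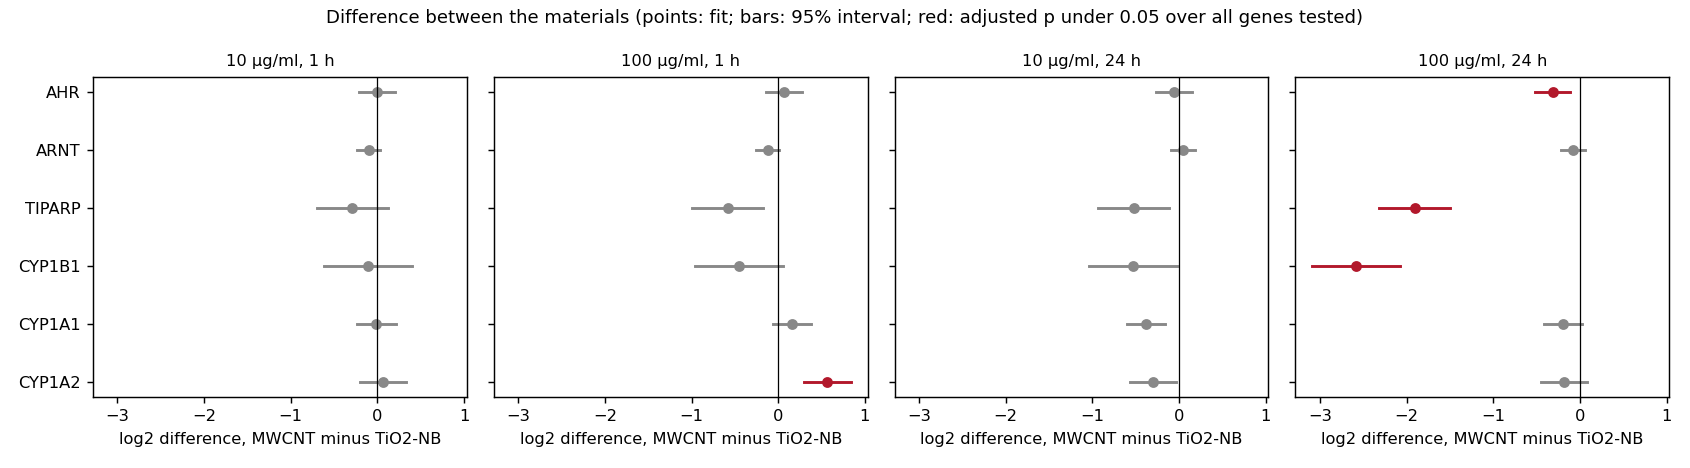
Difference between the materials for each member at each dose and time, as MWCNT minus TiO2-NB on the log2 scale, with points for the fitted difference, bars for its 95% interval and red for an adjusted p under 0.05. At 100 µg/ml and 24 h CYP1B1 (-2.58), TIPARP (-1.91) and AHR (-0.31) are red and lie below 0, and at 100 µg/ml and 1 h CYP1A2 (0.57) is red and lies above 0.

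At 10 µg/ml and 24 h CYP1B1 was at 10.01, 9.84 and 10.22 with MWCNT and at 10.66, 10.60 and 10.39 with TiO2-NB. All MWCNT arrays lay below all control arrays and all TiO2-NB arrays. Ranges lay apart in 8.34% of genes against control and in 18.5% between the materials. The difference from control was -0.66 ± 0.25 (limma, adjusted p = 1) and from TiO2-NB -0.53 ± 0.25 (limma, adjusted p = 0.464). By limma 0 genes were called with 10 µg/ml MWCNT at 24 h, while 421 had an unadjusted p under 0.05; with the replicate number as a block among the paired groups 6 were called, CYP1B1 not among them. From 10 to 100 µg/ml CYP1B1 fell with MWCNT, by a difference of -1.79 ± 0.25 (limma, adjusted p = 0.00012).

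At 1 h the control of CYP1B1 was at 10.94, 10.87 and 11.26. With MWCNT it was at 10.39, 10.39 and 10.97 for 10 µg/ml and at 9.95, 10.13 and 10.79 for 100 µg/ml. With TiO2-NB it was at 10.72, 10.15 and 11.21 for 10 µg/ml and at 10.56, 10.61 and 11.06 for 100 µg/ml. The 100 µg/ml MWCNT arrays lay just below the controls, as in 6.4% of genes, and the other 3 exposed groups overlapped them. In 5 of 5 groups at 1 h replicate 3 was the highest. The difference from control with 100 µg/ml MWCNT was -0.73 ± 0.25 (limma, adjusted p = 1) and between the materials at that dose -0.46 ± 0.25 (limma, adjusted p = 0.414). No gene was called with 100 µg/ml MWCNT at 1 h, while 293 had an unadjusted p under 0.05.

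At 10 µg/ml and 1 h no member was called and all ranges overlapped, for MWCNT against control, TiO2-NB against control and the materials against each other. Of all genes 5.18%, 5.45% and 6.78% had ranges apart in these comparisons. By limma none was called, while 162, 213 and 264 genes had an unadjusted p under 0.05. The largest difference among the members between the materials was that of TIPARP, -0.29 ± 0.20 (limma, adjusted p = 1).

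The 4 CYP1B1 probe sets did not tell the same story for TiO2-NB. With 100 µg/ml MWCNT at 24 h 3 of them fell alike, with differences of -2.46 ± 0.31 on 202435_s_at, -2.44 ± 0.24 on 202436_s_at and -2.43 ± 0.26 on 202437_s_at, and with limma's p adjusted over 15309 probe sets between 7.34e-07 and 1.33e-05, where 11% of the probe sets were called. With TiO2-NB at that dose and time 202437_s_at was at 10.98, 10.92 and 11.21 against 10.23, 10.32 and 9.88 in the control. All of these TiO2-NB arrays lay above the controls, and the probe set rose by 0.89 ± 0.26 (limma, adjusted p = 0.0139), as 1 of 4; of all probe sets 22.1% were called. On 202435_s_at the same arrays were at 10.24, 9.81 and 9.21 against 10.31, 10.41 and 10.16, with overlap and a difference of -0.54 ± 0.31 (limma, adjusted p = 0.239).

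A test of each probe set against the gene's other probe sets, chosen after these values were seen, was run on the probe sets above the array median on at least 3 arrays, which leaves 3 for CYP1B1. Under TiO2-NB it gave 1.09 for 202437_s_at (limma's diffSplice, adjusted p = 0.0315) and -1.05 for 202435_s_at (adjusted p = 0.0407), where 10.7% of 5680 probe sets were called. Under MWCNT the 3 values lay between -0.02 and 0.02 (adjusted p = 1). Between the materials it gave -1.07 for 202437_s_at and 1.03 for 202435_s_at, neither called (adjusted p = 0.0501 and 0.0635). With the fourth probe set, 202434_s_at, which lay below the array median on all 30 arrays, included, the TiO2-NB calls remained (adjusted p = 0.0177 and 0.0416, where 9.31% of 8678 were called). That probe set itself was then called against the others with MWCNT (2.11, adjusted p = 1.87e-06, where 0.369% were called) and between the materials (2.23, adjusted p = 1.09e-07), as was 202437_s_at between the materials (-1.69, adjusted p = 2.84e-05, where 6.34% were called). Between the materials at 100 µg/ml and 24 h the difference was -1.92 ± 0.31 on 202435_s_at (limma, adjusted p = 0.000113) and -3.32 ± 0.26 on 202437_s_at (limma, adjusted p = 9.67e-09), and 23.9% of probe sets were called there. The direction was the same on each of the 4. 202434_s_at ran from 4.71 to 5.63, and between the materials it differed by -0.38 ± 0.13 (limma, adjusted p = 0.0302).

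**Figure D3:**
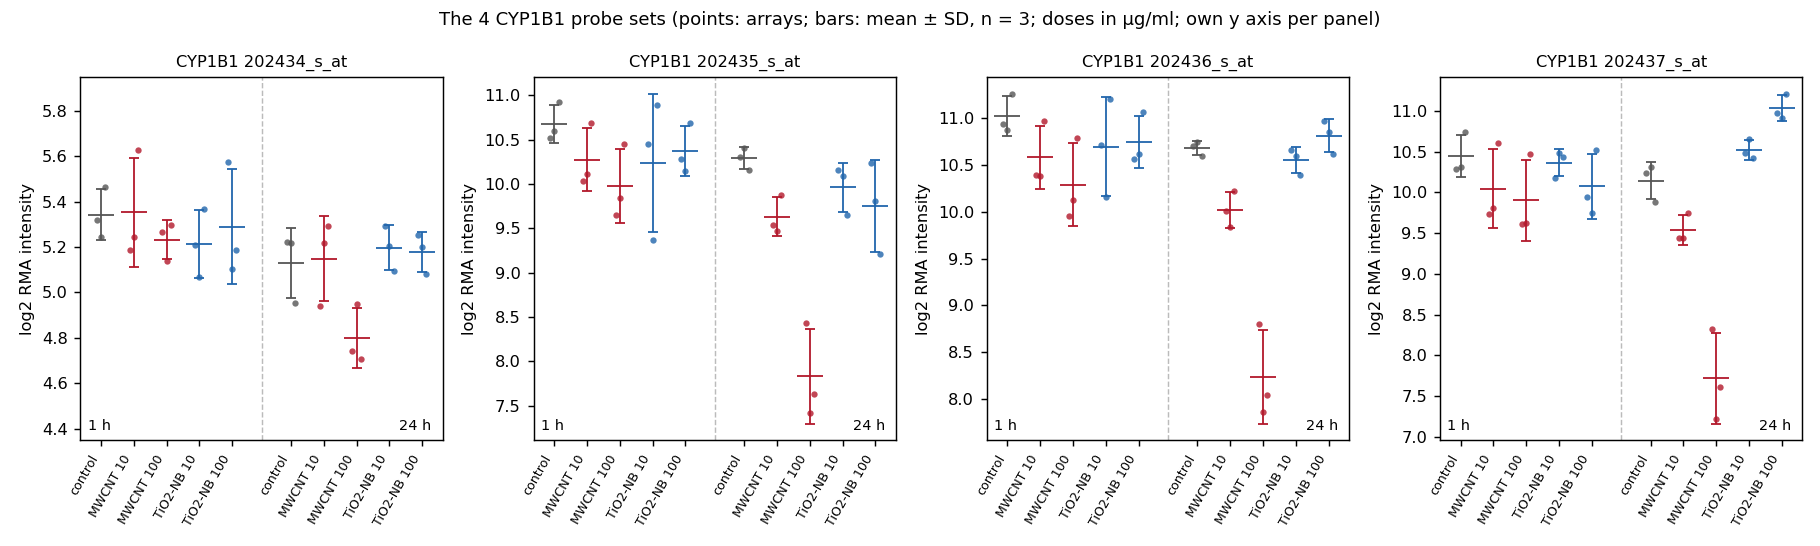
Level of the 4 CYP1B1 probe sets on every array, as log2 RMA intensity with a y axis of its own in each panel, for the control and both materials at 10 and 100 µg/ml after 1 h (left) and 24 h (right), with points for arrays and bars for the mean ± SD of 3 arrays. With 100 µg/ml MWCNT at 24 h the means are 7.83, 8.24 and 7.72 on 202435_s_at, 202436_s_at and 202437_s_at, whereas with TiO2-NB 202437_s_at reaches 11.04 and 202435_s_at 9.75.

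CYP1A1, the enzyme most often read out as a sign of AHR activity, stayed low throughout. Its probe set (205749_at) ran from 4.58 to 5.26, above the array's 25th percentile on 25 of 30 arrays and above the array median on 0. At 24 h and 100 µg/ml it was at 4.96, 4.84 and 4.80 with MWCNT, at 5.03, 5.23 and 4.93 with TiO2-NB and at 5.04, 4.79 and 5.04 in the control. These groups overlapped. The materials differed by -0.20 with a 95% interval from -0.42 to 0.02 (limma, adjusted p = 0.179). At 10 µg/ml and 24 h it was at 4.58, 4.68 and 4.68 with MWCNT and at 4.89, 5.20 and 5.00 with TiO2-NB. Those ranges lay apart, as in 18.5% of genes, with a difference of -0.38 ± 0.11 (limma, adjusted p = 0.188). These MWCNT arrays lay below the 25th percentile of every array of the series, where the size of a difference is not reliable.

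CYP1A2 also lay below the array median on all 30 arrays, on both of its probe sets. On 207608_x_at it was at 6.11, 6.25 and 6.26 after 1 h with 100 µg/ml MWCNT, at 5.68, 5.61 and 5.64 with TiO2-NB and at 5.999, 5.739 and 5.969 in the control. The MWCNT arrays lay above and the TiO2-NB arrays below all controls. Neither difference from control passed the test (0.31 ± 0.13 with MWCNT, limma adjusted p = 1; -0.26 ± 0.13 with TiO2-NB, limma adjusted p = 0.327), and the difference between the materials did (0.57 ± 0.13, limma adjusted p = 0.0301).

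It was 1 of 6 members called at that dose and time, where 1.42% of all genes were called, 1.13% of all genes were called higher, and 17.8% had ranges apart. The call was lost without replicate 2 or 3 of either group (adjusted p = 0.079 to 0.103, and 0.0219 to 0.174 over all alternatives). The second probe set, 207609_s_at, was at 5.14, 5.46 and 5.56 with MWCNT and at 5.30, 5.29 and 5.17 with TiO2-NB, with overlap. The mean of both probe sets differed by 0.35 (limma, adjusted p = 0.0721). Across all genes the 143 calls of this comparison became 6 to 127 when 1 array was left out, and 0 when the 6 arrays were fitted alone.

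The difference between the materials widened with time at 100 µg/ml and with dose at 24 h for CYP1B1 and TIPARP. At 100 µg/ml it was larger at 24 h than at 1 h by -2.12 ± 0.35 for CYP1B1 (limma, adjusted p = 0.000274) and by -1.32 ± 0.28 for TIPARP (limma, adjusted p = 0.00232). On 207608_x_at CYP1A2 changed by -0.75 ± 0.18 (limma, adjusted p = 0.00571), as its difference went from 0.57 at 1 h to -0.19 at 24 h. AHR missed the threshold (-0.38 ± 0.14, limma adjusted p = 0.0546), but passed it with cyclic loess (limma, adjusted p = 0.015), with the replicate number as a block within each time (limma, adjusted p = 0.0495) or among the groups whose numbers pair (limma, adjusted p = 0.00619), and without replicate 2 of MWCNT or replicate 3 of TiO2-NB at 1 h or replicate 2 of TiO2-NB at 24 h; the adjusted p ran from 0.00619 to 0.147 over all alternatives. Thus 3 of 6 members were called lower in this test, or 4 with either of these blocks, where 10.5% of genes were called lower without a block. With the block within each time 26% of genes were called in either direction, and with the block among paired groups 36.8%. At 24 h the material difference at 100 µg/ml exceeded that at 10 µg/ml by -2.05 ± 0.35 for CYP1B1 (limma, adjusted p = 0.00158) and -1.38 ± 0.28 for TIPARP (limma, adjusted p = 0.00803), and 1.07% of genes were called lower there. Its change with time at 10 µg/ml was -0.42 ± 0.35 for CYP1B1 and -0.23 ± 0.28 for TIPARP. Its change with dose at 1 h was -0.34 ± 0.35 and -0.29 ± 0.28. In each of these tests 0 genes were called.

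TIPARP fell from 1 to 24 h in every condition, controls included. The 24 h cells had also been longer in culture after PMA and plating, which cannot be told apart from exposure time. The mean log2 level of the monocyte and macrophage markers ran from 9.26 to 9.39 in the 1 h controls and from 9.79 to 9.84 in the 24 h controls. Its part in the changes over time was not tested. For TIPARP the 1 h controls were at 11.51, 11.88 and 11.33, and the 24 h controls lay below all of them, as given above. There TIPARP fell by 1.69 ± 0.20 (limma, adjusted p = 2.64e-07). Of all genes 16.1% were called lower over time in the control. With TiO2-NB the difference from 1 to 24 h was -1.52 ± 0.20 at 10 µg/ml and -0.77 ± 0.20 at 100 µg/ml. With MWCNT it was -1.76 ± 0.20 and -2.09 ± 0.20 at those doses, and limma's adjusted p in the 4 exposed conditions lay between 9.57e-09 and 0.00282. Called lower over time were 18.5% of genes with 10 µg/ml MWCNT, 17.7% with 100 µg/ml MWCNT, 15.6% with 10 µg/ml TiO2-NB and 20.7% with 100 µg/ml TiO2-NB. At 1 h TIPARP was at 10.99, 11.69 and 11.09 with 10 µg/ml MWCNT and at 10.49, 11.43 and 10.76 with 100 µg/ml, overlapping the controls in both. Each of these arrays lay below the control array of the same number. The differences from control were -0.32 ± 0.20 and -0.68 ± 0.20, neither called. With the block among paired groups the second was still not called (limma, adjusted p = 0.212), where 0 genes were.

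AHR fell over time in the control by 0.40 ± 0.10 (limma, adjusted p = 0.0026). The 1 h controls were at 8.78, 8.81 and 8.80, all above the 24 h controls. With 100 µg/ml TiO2-NB it rose over time by 0.33 ± 0.10 although the groups overlapped (limma, adjusted p = 0.00883). That call was lost without replicate 2 at 1 h or replicate 1 at 24 h (adjusted p = 0.0634 and 0.0733) and with the compared arrays fitted alone (adjusted p = 0.0822). The response to 100 µg/ml TiO2-NB was 0.73 ± 0.14 larger at 24 h than at 1 h (limma, adjusted p = 0.00118), where 7.49% of genes were called higher. With MWCNT at 100 µg/ml AHR differed over time by -0.05 ± 0.10 (limma, adjusted p = 0.736).

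CYP1B1 fell over time with 100 µg/ml MWCNT, with a difference of -2.06 ± 0.25 (limma, adjusted p = 3.5e-07), and was not called over time in the other 4 conditions. With 10 µg/ml MWCNT its difference of -0.56 (limma, adjusted p = 0.0697) was called with the replicate number as a block within each time (limma, adjusted p = 0.0073). That fit called 45.9% of genes in this comparison. ARNT fell over time, with differences of -0.19 ± 0.07 with 100 µg/ml MWCNT, -0.21 ± 0.07 with 10 µg/ml TiO2-NB and -0.24 ± 0.07 with 100 µg/ml TiO2-NB, and with limma's adjusted p between 0.00447 and 0.0202. The first of these calls was lost without replicate 1 at 1 h or replicate 2 at 24 h (adjusted p = 0.106 and 0.0622) and the second without replicate 3 at either time (adjusted p = 0.11 and 0.0766). All 3 were lost with the mean of the ARNT probe sets. With 10 µg/ml MWCNT CYP1A1 fell by 0.39 ± 0.11 (limma, adjusted p = 0.00503), to the 24 h arrays that lay below the 25th percentile of every array, and CYP1A2 by 0.38 ± 0.13 (limma, adjusted p = 0.0193), and with 100 µg/ml CYP1A2 fell by 0.46 ± 0.13 (limma, adjusted p = 0.0059). The CYP1A2 call at 10 µg/ml was lost without replicate 2 at 1 h or replicate 1 or 2 at 24 h (adjusted p = 0.0864 to 0.102), and both CYP1A2 calls with the mean of its probe sets.

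In order of level, the TIPARP means of the 10 groups ran from 11.57 in the 1 h control to 8.81 with 100 µg/ml MWCNT at 24 h. Among neighbours in that order, 100 and 10 µg/ml TiO2-NB at 24 h, the 24 h control and 10 µg/ml MWCNT, and both MWCNT doses at 24 h had ranges apart. For CYP1B1 on 202436_s_at the means ran from 11.02 in the 1 h control to 8.24, and only that lowest group, 100 µg/ml MWCNT at 24 h, stood apart from its neighbour. For AHR they ran from 9.18 with 100 µg/ml TiO2-NB at 24 h to 8.40 in the 24 h control, with overlap between all neighbours.

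Lists of genes around AHR were counted in the same fit at 100 µg/ml and 24 h, against the shares of all genes given above. They were chosen with earlier results of these data known. Of 20 tested genes among the other reported AHR targets, 1 was called higher and 7 lower with MWCNT than with TiO2-NB, with a median of -0.13. NQO1, a quinone reductase that is also an NRF2 target, fell with MWCNT by 0.44 ± 0.09 and rose with TiO2-NB by 0.53 ± 0.09, and the materials differed by -0.97 ± 0.09 (limma, adjusted p = 3.93e-08). PTGS2, the inducible cyclooxygenase, rose with both, by 0.96 ± 0.18 with MWCNT and 2.38 ± 0.18 with TiO2-NB. IL24, a cytokine, rose with TiO2-NB by 1.66 ± 0.16 and differed by -1.87 ± 0.16 between the materials. ABCG2, an efflux transporter, was lower with MWCNT by a difference of -1.08 ± 0.25. NEDD9, an adhesion scaffold, fell with TiO2-NB by 0.68 ± 0.17, a call lost without replicate 2 of the control (adjusted p = 0.0539) or TiO2-NB replicate 1 (adjusted p = 0.0543). Against control this list had 1 higher and 3 lower with MWCNT, which became 2 calls in all without replicate 2 or replicate 3 of that group, and 5 higher and 2 lower with TiO2-NB.

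Tryptophan is the source of kynurenine, which can bind AHR. Of 14 tested genes in the list of tryptophan metabolism and AHR ligand supply, which holds enzymes, amino acid transporters and the tryptophan tRNA ligase, 6 rose and none fell with TiO2-NB, and 2 rose and 2 fell with MWCNT. KYNU, which cleaves kynurenine, rose with both, by 1.41 ± 0.19 with TiO2-NB and 1.10 ± 0.19 with MWCNT. KMO, which hydroxylates kynurenine, rose with TiO2-NB by 0.61 ± 0.11, as did SLC3A2, a subunit of an amino acid transporter, by 0.67 ± 0.14. QPRT, a later enzyme on the way to NAD, fell with MWCNT by 1.19 ± 0.18. WARS1, that ligase, rose with both, by 0.31 ± 0.06 with MWCNT and 0.48 ± 0.06 with TiO2-NB. IDO1 and TDO2, the enzymes that start kynurenine synthesis, rose with TiO2-NB by 0.45 ± 0.13 and 0.48 ± 0.11; TDO2 was named after its values were seen. Between the materials 5 were lower with MWCNT and 0 higher, with a median of -0.22, among them QPRT (-0.83 ± 0.18), SLC3A2 (-0.63 ± 0.14), IDO1 (-0.48 ± 0.13) and WARS1 (-0.17 ± 0.06). In this comparison IDO1 lost its call without replicate 2 of TiO2-NB (adjusted p = 0.0611). The count of 5 became 3 without replicate 2 or replicate 3 of MWCNT and 2 without replicate 2 of TiO2-NB. It became 8 with the replicate number as a block among the groups whose numbers pair, a fit that called 38.4% of all genes.

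Chaperones, partners and cofactors of AHR went both ways. Of 17 tested, 4 rose and 1 fell with MWCNT, 6 rose and 4 fell with TiO2-NB, and 3 were higher and 5 lower with MWCNT than with TiO2-NB. ARNT2, a relative of ARNT, rose with MWCNT by 0.43 ± 0.09 and fell with TiO2-NB by 0.84 ± 0.09, a difference of 1.27 ± 0.09 (limma, adjusted p = 4.78e-09). RELB, an NF-kappaB subunit that can pair with AHR, rose with both, by 0.33 ± 0.08 with MWCNT and 0.63 ± 0.08 with TiO2-NB, and was lower with MWCNT than with TiO2-NB by a difference of -0.31 ± 0.08. SRC, a kinase held in the AHR complex, rose with TiO2-NB by 1.31 ± 0.14, while its rise with MWCNT of 0.52 ± 0.14 was 0.08 with the mean of its probe sets and no longer called. EP300, a coactivator, fell with TiO2-NB by 1.02 ± 0.26, a call lost with that mean (-0.30) and without replicate 3 of that group (adjusted p = 0.0682). Of 9 tested genes of the bHLH-PAS family, other partners of ARNT and relatives, 0 were called with MWCNT. With TiO2-NB EPAS1 rose by 0.88 ± 0.17 and HIF1A by 0.28 ± 0.07. The HIF1A call was lost without replicate 3 of the control (limma, adjusted p = 0.0616).

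**Figure D4:**
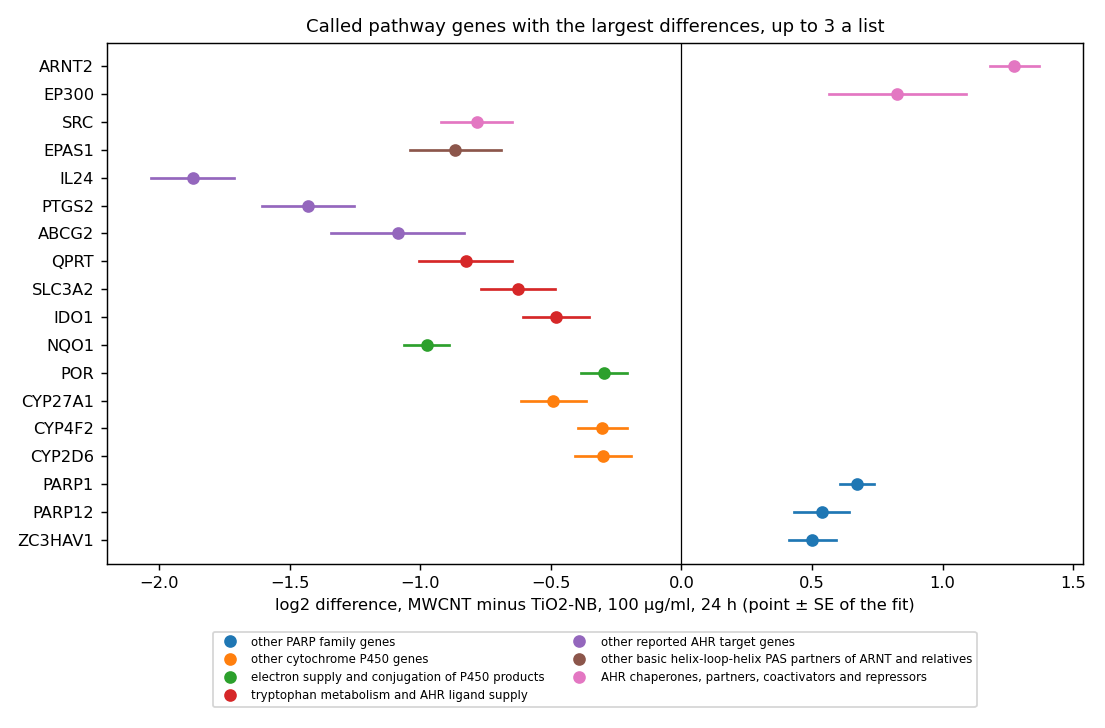
Called genes of the 7 lists around AHR, up to 3 per list with the largest differences between the materials at 100 µg/ml and 24 h, as MWCNT minus TiO2-NB on the log2 scale, with points for the fitted difference, bars for ± 1 standard error and colours for the lists. ARNT2 (1.27) and the PARP genes PARP1 (0.67), PARP12 (0.54) and ZC3HAV1 (0.50) lie above 0, while IL24 (-1.87), PTGS2 (-1.43) and NQO1 (-0.97) lie below it.

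Most of the other PARP family genes, the relatives of TIPARP, were not called in either exposure, and the called ones named here went against its direction. Of 11 tested, 3 rose and none fell with MWCNT, 1 fell with TiO2-NB, and 3 were higher with MWCNT than with TiO2-NB. PARP1, the DNA damage sensor, rose with MWCNT by 0.23 ± 0.06 and fell with TiO2-NB by 0.45 ± 0.06. Leaving out control replicate 1 or 3, or MWCNT replicate 3, ended its MWCNT call (adjusted p = 0.054 to 0.156). PARP12 and ZC3HAV1, both antiviral factors, rose with MWCNT by 0.74 ± 0.11 and 0.40 ± 0.09.

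Among 15 tested genes of electron supply and conjugation, 1 rose and 2 fell with MWCNT, and 2 rose and 2 fell with TiO2-NB. MWCNT lay below TiO2-NB for 2. Between the materials 4 were called with the replicate number as a block among the groups whose numbers pair, a fit that called 38.4% of all genes. The 1 that rose with MWCNT was CYB5A, cytochrome b5 (0.61 ± 0.20, limma adjusted p = 0.0476). Its call was lost in 5 of 10 other settings (adjusted p = 0.0528 to 0.106) and without replicate 1 or 2 of the control or any 1 MWCNT array (adjusted p = 0.0583 to 0.234). POR, the reductase that passes electrons to all microsomal P450 enzymes, rose with TiO2-NB by 0.42 ± 0.09. The difference of -0.30 ± 0.09 between the materials was not called without replicate 2 or 3 of either group (adjusted p = 0.0557 to 0.0766). AKR1C3, an aldo-keto reductase, fell with both, by 0.63 ± 0.16 with MWCNT and 0.62 ± 0.16 with TiO2-NB. Of the other cytochrome P450 genes 15 of 36 were tested. CYP7B1, an oxysterol hydroxylase, rose with both (1.07 ± 0.18 with MWCNT and 0.74 ± 0.18 with TiO2-NB), and CYP27A1, the mitochondrial sterol hydroxylase, rose with TiO2-NB by 0.65 ± 0.12. With MWCNT 3 of them were lower than with TiO2-NB, a count of 1 without replicate 1 or 3 of MWCNT or replicate 2 of TiO2-NB.

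Cell type markers moved in the same comparisons. Of the 10 monocyte and macrophage markers 4 fell and none rose with TiO2-NB at 100 µg/ml and 24 h, among them MSR1 by 0.94 ± 0.21 and CD163 by 0.82 ± 0.15, both scavenger receptors, and 0 were called with MWCNT. The mean log2 level of these markers ran from 9.79 to 9.84 in the 24 h controls, from 9.69 to 9.73 with MWCNT and from 9.53 to 9.56 with TiO2-NB. PDGFRA, of the fibroblast list, rose with MWCNT by 1.08 ± 0.15 and was 1.33 ± 0.15 higher with MWCNT than with TiO2-NB, and COL1A2, of the same list, rose with TiO2-NB by 0.34 ± 0.12. The list thus had 1 of 6 tested genes called higher and 0 lower in each of the 3 comparisons. The mean of that list ran from 5.53 to 5.66 in the control, 5.65 to 5.76 with MWCNT and 5.62 to 5.68 with TiO2-NB. No epithelial or lymphocyte marker was called in these comparisons. The part of these shifts in the values of the pathway was not tested.

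Genes with the pattern most like a member's were taken over the 10 group means, among 2023 or 2024 genes whose means had an SD of at least 0.25. CYP1B1 was most like NPTX1 (Pearson r = 0.971), KIAA0930 (0.944), QPRT (0.917), XYLT1 (0.859) and MAF (0.856). With the mean of each time removed, VEGFA (0.988), THBD (0.983), NRG1 (0.981), ADORA2B (0.98) and CYTIP (0.973) led. For TIPARP the first were TFAP2C (0.983), NDRG1 (0.981), SSH1 (0.98), KLF9 (0.968) and ARMC9 (0.967), and with time removed TFAP2C (0.975), GPR35 (0.954), RUNX3 (0.945), NDRG1 (0.942) and FOXF1 (0.939). AHR was most like SHISAL1 (0.966), DRAM1 (0.937), CYLD (0.931), N4BP2L1 (0.926) and SAT1 (0.917). With time removed SLC19A2 (0.983), ATP6V1A (0.976), CXCL1 (0.975), TNFAIP2 (0.972) and TNFAIP3 (0.971) took their place. These are descriptions over 10 groups measured on the same arrays. For CYP1B1 the mean with 100 µg/ml MWCNT at 24 h was 8.235, and the next lowest group mean was 10.023. The r values of CYP1B1 can therefore rest largely on that lowest group. Between the members CYP1B1 and TIPARP r was 0.767, and 0.89 with time removed, while between CYP1B1 and AHR it was -0.045 and -0.125.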

How the data were processed

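Each of the 30 arrays gave log2 probe set values, which the authors made by RMA (background correction, normalization between arrays and summary of probes), per the submitters' processing notes; no version is given. The deposited values ran from 1.89 to 14.42 and were not normalized again. Of 22277 probe sets, 62 were controls, 19064 carried 1 gene, 1043 several and 2108 none; only the single-gene ones were used. A probe set was kept when above the array's 25th percentile on at least 3 arrays (15309 were), and a gene was represented by its kept probe set of highest mean. limma 3.58.1 in R 4.3.3 fitted 10 group means to 30 arrays (20 residual degrees of freedom), with two-sided moderated tests and Benjamini-Hochberg adjustment per comparison. A second fit held every kept probe set. The script was tested on simulated data.

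Alternatives were median centring, cyclic loess, no filter or a median filter, the mean of a gene's probe sets, every probe set, only the arrays compared, replicate blocks, a trended robust prior, and leaving out each array. Tests of responses between times and of probe sets against one another were added after the values were seen. Members and lists were chosen with earlier results of these data known. Named list genes are up to 3 called genes of a list with the largest differences in each 100 µg/ml comparison at 24 h. The number of arrays limits the precision, and the median residual SD was 0.128. Equally numbered arrays deviated together, with every pair correlating above 0.1, among control, both MWCNT doses and 100 µg/ml TiO2-NB at 1 h (0.333 to 0.728), among control and both 10 µg/ml groups at 24 h (0.106 to 0.699), and between the 100 µg/ml groups at 24 h (0.357 to 0.622). These sets were picked by those same correlations, and the groups of a set are called paired here. Of all 60 pairs within a time 21 correlated below 0, so equal numbers were not taken as pairs between the other groups. Whether those groups pair under other numbers was not tested. A block within these sets was added after the values were seen and used for comparisons inside a set. It was also used for the change between times of the material difference at 100 µg/ml. That change spans sets, but the material difference at each time lies inside a set.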

Additional observations from a re-analysis of the deposited data

Results flagged for a closer look

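For 6 results a test showed that an effect differed between the times. The material difference at 100 µg/ml (MWCNT minus TiO2-NB) was lower at 24 h than at 1 h for CYP1B1 (-2.12), TIPARP (-1.32) and CYP1A2 (-0.75). The CYP1A2 value rests on a probe set below the array median on all 30 arrays, and it stayed called in 22 of 22 alternatives, with values from -0.85 to -0.50. On its second probe set, 207609_s_at, the 100 µg/ml means were closer together. They were 5.388 with MWCNT and 5.251 with TiO2-NB at 1 h, and 5.453 and 5.568 at 24 h. The response of CYP1B1 to 100 µg/ml MWCNT against control was lower at 24 h than at 1 h (-1.71), where 1.07% of all genes were called lower. The responses of AHR (0.73) and TIPARP (0.92) to 100 µg/ml TiO2-NB were larger at 24 h than at 1 h. The TIPARP value lost its call without replicate 2 of the 1 h control (adjusted p = 0.0756), replicate 3 of the 24 h control (adjusted p = 0.0526), replicate 1 or 3 of the exposed group at 1 h (adjusted p = 0.0544 and 0.0677) or replicate 1 at 24 h (adjusted p = 0.052). The last 3 tests were added after the values were seen.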

How the results depend on the processing

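Between the materials at 100 µg/ml and 24 h, CYP1B1 and TIPARP kept their direction and call in 17 of 17 alternatives, and so in 16 of 16 did the changes of AHR and TIPARP against control with either material and of CYP1B1 with MWCNT. With each array centred on its median, ARNT over time with 100 µg/ml MWCNT was -0.16 and lost its call. Cyclic loess turned 4 small values that were not called: ARNT against control with 10 µg/ml MWCNT at 1 h (0.0074) and 100 µg/ml at 24 h (-0.0050), AHR with 100 µg/ml TiO2-NB at 1 h (-0.0231) and AHR between the materials at 10 µg/ml and 1 h (0.0201). It also brought the change between times of the AHR material difference at 100 µg/ml past the threshold (-0.4621). The mean of a gene's probe sets turned 5, none called: ARNT with 10 µg/ml MWCNT at 24 h (-0.0242), with 10 µg/ml TiO2-NB at 1 h (-0.0366) and 24 h (-0.0095) and between the materials at 10 µg/ml and 24 h (-0.0147), and CYP1A2 between the materials at 10 µg/ml and 1 h (-0.0190). That mean ended the calls of CYP1A2 between the materials at 100 µg/ml and 1 h (0.3524) and over time with MWCNT (-0.1800 at 10 and -0.1981 at 100 µg/ml), and of ARNT over time with 100 µg/ml MWCNT (-0.1043) and 10 and 100 µg/ml TiO2-NB (-0.0597 and -0.1157). With every kept probe set in 1 fit, the TIPARP dose difference with MWCNT (-0.6953) had an adjusted p of 0.0504. With only the arrays compared, values stayed and calls were lost for CYP1A2 (0.5678) and AHR (-0.3143) between the materials, ARNT over time (-0.1937 and -0.2121) and AHR over time (0.3303). The cause of these changes was not tested.

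Leaving out 1 array ended calls, at unchanged direction, for CYP1A2 between the materials at 100 µg/ml and 1 h (0.5432 to 0.6147), AHR between them at 24 h (-0.4291 to -0.2173), TIPARP by dose (-0.7829 to -0.6249 with MWCNT, 0.6523 to 0.7363 with TiO2-NB), CYP1A2 over time with 10 µg/ml MWCNT (-0.5199 to -0.3027), ARNT over time (-0.2193 to -0.1498 with 100 µg/ml MWCNT, -0.2526 to -0.15 with 10 µg/ml TiO2-NB), AHR over time with 100 µg/ml TiO2-NB (0.2333 to 0.4451) and the TIPARP response to it between times (0.7655 to 1.0755). It made that AHR change between times called without 1 of 3 arrays (-0.4934 to -0.2817). It turned 19 values that were not called. Against control at 1 h these were, with 10 µg/ml MWCNT, CYP1A1 (-0.1388 to 0.0036), AHR (-0.0966 to 0.0333) and ARNT (-0.0307 to 0.024), with 100 µg/ml MWCNT CYP1A1 (-0.1335 to 0.0348), with 10 µg/ml TiO2-NB CYP1A1 (-0.1281 to 0.0143) and TIPARP (-0.1982 to 0.125), and with 100 µg/ml TiO2-NB AHR (-0.0453 to 0.1295) and TIPARP (-0.2515 to 0.0585). At 24 h they were ARNT with 10 and 100 µg/ml MWCNT (-0.0114 to 0.105 and -0.0399 to 0.0766), CYP1A1 and ARNT with 10 µg/ml TiO2-NB (-0.0082 to 0.1479 and -0.0559 to 0.0606) and CYP1A2 with 100 µg/ml TiO2-NB (-0.0636 to 0.137). Between the materials at 1 h they were CYP1B1 (-0.3806 to 0.1462), CYP1A1 (-0.0391 to 0.0049), CYP1A2 (-0.0246 to 0.163) and AHR (-0.0685 to 0.0614) at 10 µg/ml and AHR at 100 µg/ml (-0.0148 to 0.16). Over time it was AHR with 100 µg/ml MWCNT (-0.1191 to 0.0058).

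The replicate number as a block ended no member's call and added none against control or between the materials. CYP1B1 between the materials at 100 µg/ml and 24 h stayed at -2.58. As a block within each time, or within the sets of groups that pair, the replicate number called the AHR change between times (-0.3787). Within those sets it also called TIPARP between the materials at 100 µg/ml and 1 h (-0.5846). Within each time it also called CYP1B1 over time with 10 µg/ml MWCNT (-0.5586). Other member calls did not change in these fits. Within the sets the genes called rose from 116 to 544 for 100 µg/ml TiO2-NB at 1 h, and between the materials at 100 µg/ml from 143 to 402 at 1 h and from 2505 to 3859 at 24 h; at 10 µg/ml and 24 h they rose from 0 to 6 with MWCNT, from 2 to 15 with TiO2-NB and from 1 to 18 between the materials. With the block within each time, other P450 genes called with 100 µg/ml MWCNT at 24 h went from 1 to 2 and PARP genes from 3 to 5. Counts over all genes moved by more than 1.5 times for 100 µg/ml TiO2-NB at 1 h, from 116 to 68 with cyclic loess, 13 with the median filter, 0 with only the arrays compared, 193 with the block within time and 60 with the trended robust prior. For the materials at 100 µg/ml and 1 h 143 became 0 with the median filter and 0 with only the arrays compared. For 100 µg/ml TiO2-NB at 24 h 2219 became 1304 with only the arrays compared. The fit of every kept probe set called 3377 of 15309 probe sets there. That share of 22.1% is the same as for the 2219 of 10050 genes. CYP1A1, CYP1A2 and one CYP1B1 probe set lay below the array median throughout, which limits what these arrays can show of them.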
